A study of Danio rerio with 18 samples.

Results

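The experiment compared central nervous system (CNS) cells of Dicer-mutant zebrafish embryos with those of wild-type embryos. Its members are the 6 arrays of GFP-positive cells from the miR-124 reporter lines, 3 mutant and 3 wild-type, of the 18 arrays in the series, read over every non-control probe set with 1 gene symbol, 10795 of 15617 probe sets. Embryos of all groups were raised at 28 °C in E3 medium and sorted by fluorescence at 14 to 16 somites, a stage at which the neural tube is being patterned and the first neurons appear. The wild-type group, wt_124_GFP_pos, held GFP-positive cells of wild-type fish that carry a miR-124 reporter, and the mutant group, MZ_124_GFP_pos, held such cells of a Dicer-mutant line; MZ is not spelled out in the labels. The GFP-negative cells of the same lines, described as the rest of the body, gave 3 further arrays per line (wt_124_GFP_neg and MZ_124_GFP_neg), and a wild-type miR-206 line gave the remaining 6. The labels do not state the Dicer allele, the promoter that drives GFP or how many embryos were pooled per array, and genotype and line cannot be told apart.

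Dicer is the ribonuclease that cuts hairpin precursors into mature microRNAs, which guide Argonaute proteins to complementary sites in messenger RNAs and lower their translation and stability. The precursors are first released from primary transcripts by Drosha with its RNA-binding partner Dgcr8. In zebrafish embryos, miR-430 clears many maternal messenger RNAs, and miR-124 is the abundant microRNA of neurons, known in mammals to repress genes of non-neuronal cells. Fish without maternal and zygotic Dicer are known to form most cell types but to have an abnormal brain, and that defect is known to depend largely on miR-430.

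Values are deposited intensities on a linear scale, and changes are log2 fold changes of mutant over wild type on the log2(intensity + 16) scale, which understates the change of dim genes; signed values given with a gene's name, and medians of gene lists, are such log2 fold changes. A feature (1 probe set per gene) was called when its Benjamini-Hochberg adjusted p from limma was under 0.05 over 9548 features, of which 6831 carry a gene symbol; of the 10795 probe sets, 7987 passed the filter on dim values and 2808 did not. Arrays of 1 group correlated at 0.988 to 0.990 (mutant) and 0.987 to 0.989 (wild type), and those of different groups at 0.937 to 0.948. The mutant arrays had higher medians, 39.3 to 43.5 against 36.9 to 38.5, and lower maxima, 8449 to 8902 against 12057 to 14909. Among the brightest 10% of features the median change was -0.23, and after quantile normalization, which gives all arrays the same distribution, it was -0.04. Changes of very bright genes are therefore given with their quantile-normalized value where it differs by over 1.5 times or ends the call.

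The CNS label was checked against 19 CNS marker genes. Their summed intensity was 12435 to 13090 on the wild-type arrays and 12130 to 13679 on the mutant arrays, against 4012 to 6650 in the GFP-negative cells of both lines. Of the 19, 0 rose (1 at an unadjusted limma p under 0.05) and 4 fell, beside 19.3% and 15.4% of all 9548 features. Muscle genes were low in both groups, with a sum over 39 genes of 1846 to 2344 (wild type) and 1883 to 2456 (mutant), against 13282 to 23043 in the GFP-negative cells, and 23 erythroid genes summed to 949 to 1327 and 998 to 1265. Epidermal genes differed: the sum over 50 genes was 2896, 4477 and 3293 on the wild-type and 11198, 7634 and 7746 on the mutant arrays, without overlap, against 13472 to 17895 and 10519.6 to 14329 in the GFP-negative cells. Of these 50 genes, 13 lay below the 40th percentile of the array on every CNS array of each group. In RNA from sorted populations, fewer cells of a type and less RNA per cell cannot be told apart.

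**Figure D1:**
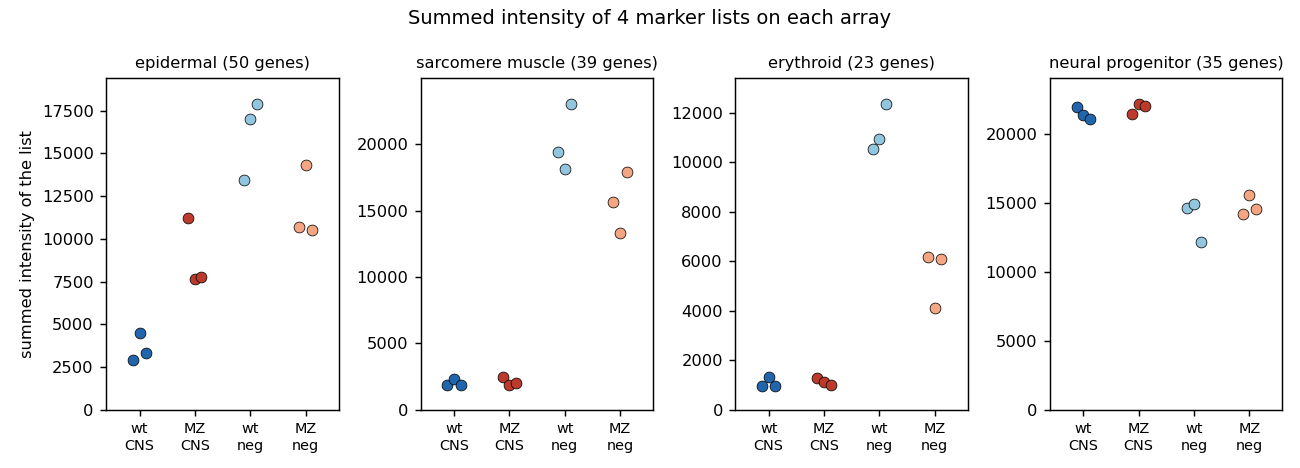
Summed linear intensity of the epidermal, muscle, erythroid and neural progenitor lists on each array of the miR-124 lines (points are arrays; wt, wild type; MZ, mutant; CNS, GFP-positive; neg, GFP-negative). Epidermal sums of the mutant CNS arrays (7634 to 11198) lie above those of the wild-type CNS arrays (2896 to 4477) and reach, on 1 array, the range of the mutant GFP-negative arrays (10519.6 to 14329), and muscle and erythroid sums of both CNS groups overlap.

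The dicer1 gene read lower in mutant CNS cells than in those of the wild-type miR-124 line. The dicer1 probe set read 224, 259 and 252 in wild type and 110.1, 209 and 101 in the mutant (log2 fold change -0.81, SE 0.26, adjusted p = 0.022). All mutant values lay below all wild-type values, but mutant replicate 2 was close to the wild-type range. The call was lost on leaving out 1 array, with -0.68 without mutant CNS array 1, -0.63 without mutant CNS array 3, -0.77 without wild-type CNS array 2 and -0.79 without wild-type CNS array 3. Outside the CNS cells, in the GFP-negative fraction, the change was -0.90 (adjusted p = 0.0117). The groups overlapped there, with 187.2, 290.6 and 115.8 in wild type and 92.1, 116.9 and 71.4 in the mutant. The wild-type arrays of the miR-206 line read 118.9 to 184.5, within the mutant CNS range of 100.7 to 209.3. A low dicer1 reading was thus not particular to the mutant arrays. A point mutation can leave a transcript detectable, and where the probes lie relative to the lesion is not given in the labels.

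Of 19 measured genes of microRNA processing and silencing, 6 rose and 4 fell, beside 19.3% and 15.4% of all 9548 features. The Drosha cofactor dgcr8 read 1204, 957 and 963 in wild type and 488, 603 and 551 in the mutant (log2 fold change -0.91, SE 0.18, adjusted p = 0.00057), and all mutant arrays were below all wild-type arrays. The Drosha gene itself, drosha, went the other way, from 62.8, 61.9 and 65.4 to 89.3, 91.4 and 94.4 (log2 fold change 0.44, SE 0.14, adjusted p = 0.0185), but the call was lost with median centring (log2 0.36), with quantile normalization (log2 0.30), with the mean of its probe sets (log2 0.26) and with single arrays left out (log2 0.42 without mutant CNS array 3, 0.44 without wild-type CNS array 1 and 0.43 without wild-type CNS array 2). The decapping activator gene dcp1a rose most, from 47.9, 48.7 and 55.6 to 155, 142 and 199.7 (log2 fold change 1.43, SE 0.15, adjusted p = 1.66e-06). Its 3 mutant values stood well above the wild-type range. Other rises were those of tnrc6c2, a GW182 family partner of Argonaute (log2 0.83), of the decapping enhancer edc3 (log2 0.72) and of the RNA-binding proteins fxr1 (log2 0.71) and fmr1 (log2 0.59, or 0.41 without wild-type CNS array 1). The fmr1 call was lost in 1 of the fits that left out an array. The falls also took in ran (log2 -0.60, quantile -0.18 and not called), the GTPase of nuclear transport, and snd1 (log2 -0.33), a nuclease of the silencing complex whose call was lost under quantile normalization (log2 -0.24) and with most single CNS arrays left out (log2 -0.27 without mutant CNS array 2, -0.35 without mutant CNS array 3, -0.34 without wild-type CNS array 1, -0.34 without wild-type CNS array 2 and -0.31 without wild-type CNS array 3). The messenger RNA decay genes xrn1 (log2 0.25), xrn2 (log2 -0.66), dcp2 (log2 0.41), edc4 (log2 0.02), cnot1 (log2 -0.30) and cnot3a (log2 -0.00) were not called. Nor were the helicase genes ddx5 (log2 0.02) and ddx17 (log2 -0.05), cofactors of Drosha, or the translin gene tsn (log2 -0.36). For edc4, however, a second probe set was called higher (log2 0.70, adjusted p = 0.000957). Counts without 1 array were 4 to 7 for the rises and 2 to 7 (2 without mutant CNS array 3 or wild-type CNS array 2 or 3, 7 without wild-type GFP-negative array 2) for the falls.

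Across the transcriptome, 3313 of 9548 features were called (34.7%), 1838 higher (19.3%) and 1475 lower (15.4%) in mutant CNS cells. Among the 6831 features with a symbol, 2451 were called, 1287 higher and 1164 lower. The gene lists below hold only such features, while shares of all features include the 2717 without a symbol. Of all 3313 calls, 638 had at least a 2-fold change, 465 higher and 173 lower. The groups did not overlap in any array for 5355 features (56.1%), and at an unadjusted p under 0.05 there were 4274. Higher calls made up 55.5% of all calls, but 45.1% with arrays centred on their medians and 49.9% after quantile normalization, so the balance of rises and falls depends on the scaling. The median change of all features was 0.02, -0.06 and -0.01 in these settings.

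**Figure D2:**
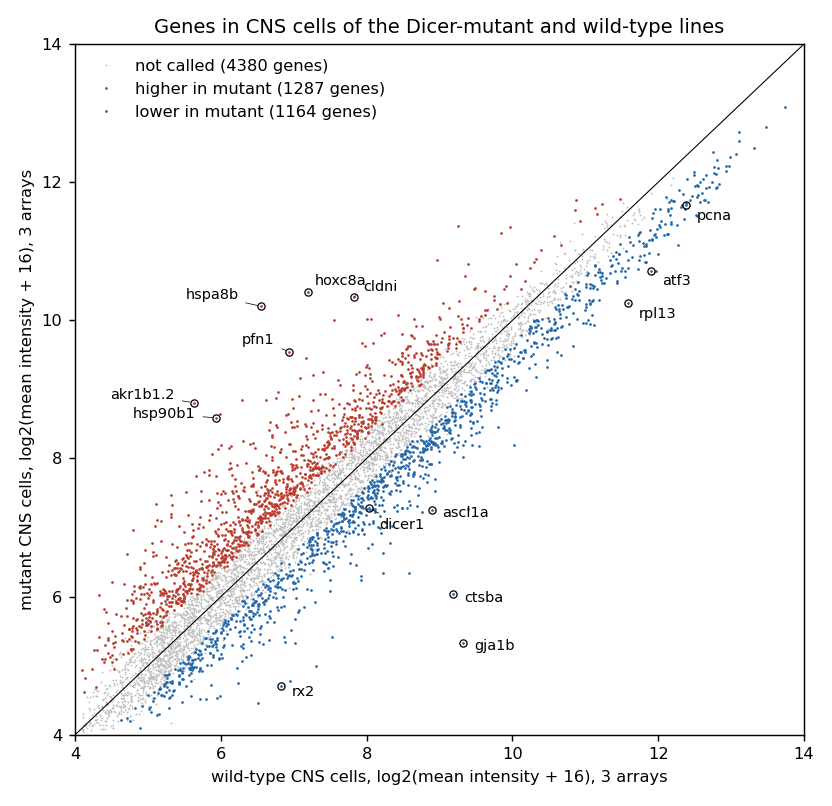
Mean of 3 wild-type CNS arrays (x) against mean of 3 mutant CNS arrays (y), both as log2(mean intensity + 16), for the 6831 features with a gene symbol; red and blue points were called higher (1287) and lower (1164), the line marks equality, and circles mark genes named in the text. The brightest genes lie below the line, where rpl13 fell by 1.34 on the log2 scale.

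The largest rise was that of hspa8b, a gene for a constitutive Hsp70-type chaperone, which read 92.9, 68.2 and 72.4 in wild type and 1196, 1337 and 952 in the mutant (log2 fold change 3.65, SE 0.25, adjusted p = 4.39e-09). The hox gene hoxc8a, a regional factor of the posterior body, read 96.5, 188 and 106 in wild type and 1657, 1147 and 1223 in the mutant (log2 fold change 3.25, SE 0.23, adjusted p = 4.81e-09). The aldo-keto reductase gene akr1b1.2 read 28.3, 29.4 and 42.3 in wild type and 402, 392 and 504 in the mutant (log2 fold change 3.19, SE 0.17, adjusted p = 1.79e-10). In each of these 3 genes the lowest mutant array was at least several times above the highest wild-type array. For hoxc8a this rests on 1 probe set, since the others on the array gave 0.49 (adjusted p = 0.0187) and 0.40 (adjusted p = 0.103). Changes of hspa8b (log2 3.84) and akr1b1.2 (log2 3.23) were of like size in the GFP-negative cells.

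The gene hsp90b1, for the Hsp90 of the endoplasmic reticulum, read 45.3, 55.6 and 34.2 in wild type and 442, 342 and 323 in the mutant (log2 fold change 2.66, SE 0.29, adjusted p = 1.89e-06). The disulfide isomerase gene pdia3 read 71.3, 103 and 109 in wild type and 495, 486 and 467 in the mutant (log2 2.19). Both sets of arrays were clearly separated, and creb3l3l, a membrane-bound transcription factor of the CREB family, rose by 2.21. The retinoic acid hydroxylase gene cyp26a1, whose product breaks down the signal that patterns the hindbrain and spinal cord, read 27.9, 59.7 and 55.1 in wild type and 508, 314 and 326 in the mutant (log2 fold change 2.66, SE 0.25, adjusted p = 3.03e-07). Mutant replicate 1 was the highest of its group and wild-type replicate 1 the lowest. The transmembrane protein gene itm2cb rose from 101, 151 and 133 to 701, 671 and 693 (log2 2.31). The ADP-ribosyltransferase gene parp3 rose from 21.7, 16.3 and 17.6 to 162, 109 and 168 (log2 2.21).

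The claudin gene cldni, a component of epithelial tight junctions, read 135, 348 and 149 in wild type and 1677, 1040.2 and 1133 in the mutant (log2 fold change 2.61, SE 0.35, adjusted p = 1.67e-05). The actin-monomer-binding profilin gene pfn1 read 64.5, 169 and 85.7 in wild type and 1007, 513 and 677 in the mutant (log2 fold change 2.65, SE 0.29, adjusted p = 1.89e-06). The actin-binding transgelin gene tagln2 read 33.3, 98.5 and 55.8 in wild type and 607, 325 and 400.2 in the mutant (log2 fold change 2.59, SE 0.28, adjusted p = 1.33e-06). All 3 genes were chosen with separate groups. In each, mutant replicate 1 was the highest mutant array and wild-type replicate 2 the highest wild-type array, as in the epidermal sum. The cofilin-like gene cfl1l (log2 2.52), the peptidylarginine deiminase gene padi2 (log2 2.18) and tp63 (log2 2.18), the transcription factor of basal epidermal cells, were highest on the same arrays. The genes cldni, cfl1l and tp63 are on the epidermal list and so are themselves part of that sum. For tp63 a second probe set gave 0.55 and was not called (adjusted p = 0.0727).

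Under the same choice of genes, the largest fall was that of gja1b, the connexin 43 gene, whose product forms gap junctions. It read 524, 685 and 660.2 in wild type and 21.0, 27 and 24.8 in the mutant (log2 fold change -3.98, SE 0.26, adjusted p = 3.6e-09). The lysosomal protease gene ctsba, for cathepsin B, read 629, 556 and 517 in wild type and 26.2, 63.2 and 58.8 in the mutant (log2 fold change -3.21, SE 0.20, adjusted p = 1.96e-09). The T-type calcium channel gene cacna1ha read 64.4, 82.8 and 79.0 in wild type and 3.7, 7.2 and 7.0 in the mutant (log2 fold change -2.06, SE 0.16, adjusted p = 4.23e-08). All 3 were well above the dim range in each wild-type array, and cacna1ha was below the 40th percentile (20.4 to 22.7 on these arrays) in each mutant array. The change of gja1b was smaller in the GFP-negative cells (log2 -1.71), and that of ctsba was -3.05 there.

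The engulfment adaptor gene gulp1a fell from 109, 111 and 102 to 9.1, 11.1 and 14.1 (log2 fold change -2.17, SE 0.20, adjusted p = 2.59e-07), and the carboxypeptidase gene cpa4 from 132, 205 and 88.9 to 13.0, 24.6 and 10.2 (log2 fold change -2.27, SE 0.54, adjusted p = 0.00324). Most mutant values of both lay in the dim range. The interferon regulatory factor gene irf1b (log2 -2.10), rsrp1 (log2 -2.02), snu13a, which encodes a protein of the spliceosome and of small nucleolar ribonucleoproteins (log2 -1.61), the insulin-like growth factor gene igf2b (log2 -1.59) and elovl4b, an elongase of very long fatty acids (log2 -1.68), also fell without overlap. The inducible heat shock gene hsp70.3 read 1801, 823 and 436 in wild type and 253, 419 and 156 in the mutant (log2 fold change -1.70, SE 0.50, adjusted p = 0.0134), and its wild-type arrays spread more widely than those of the genes above. Its call was lost with 1 array left out (log2 -1.37 without mutant CNS array 3 and -1.18 without wild-type CNS array 1), as was that of fosl2, a subunit of the AP-1 factor (log2 -1.57; -1.26 without mutant CNS array 3 and -1.34 without wild-type CNS array 2).

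**Figure D3:**
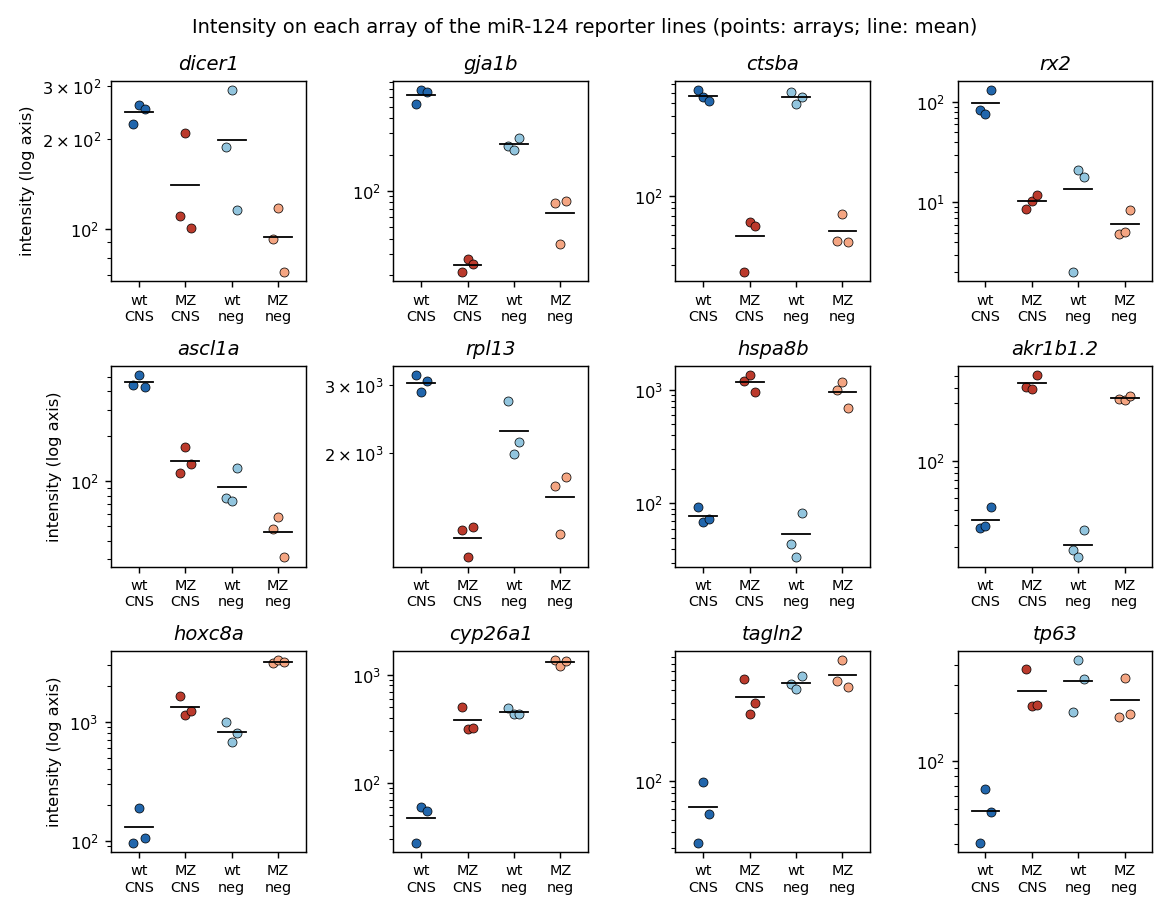
Linear intensity (log axis) of 12 genes on each array of the miR-124 lines (points are arrays, bars their means; wt, wild type; MZ, mutant; CNS, GFP-positive; neg, GFP-negative). The 3 mutant CNS arrays lie outside the wild-type CNS range in each panel, narrowly for dicer1 (209 against 224) and widely for gja1b (27 against 524).

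Genes of the cytosolic ribosome fell nearly throughout. Of 74 measured ribosomal protein genes, 72 fell and 0 rose (also 0 at an unadjusted limma p under 0.05), with a median of -0.74, beside 15.4% of all features lower and a median of 0.02. The large-subunit gene rpl13 read 3185, 2879.8 and 3072 in wild type and 1253, 1064 and 1275 in the mutant (log2 fold change -1.34, SE 0.16, adjusted p = 3.38e-06). The gene rpl35 read 3726, 4085 and 4202 in wild type and 1646, 1605 and 1731 in the mutant (log2 fold change -1.26, SE 0.14, adjusted p = 2.94e-06). Wild-type values of both were clearly above those of any mutant array. The other 2 with the smallest p, rpl30 (log2 -0.97) and rpl36 (log2 -1.02), were among the brightest features and were -0.43 and -0.52 after quantile normalization. The summed intensity of the 74 genes was 322482 to 365159 in wild type and 193778 to 216089 in the mutant. Only rpl36a (log2 -0.33) and rps27l (log2 -0.36) were not called. After quantile normalization 42 fell and 1 rose, with a median of -0.35, and after median centring 72 fell. Fits without 1 array gave 66 to 72 falls. Among GFP-negative cells 58 of the same 74 fell (median -0.50), beside 17.4% of features lower there.

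Genes of ribosome assembly fell as well. Of 81 measured nucleolar genes, which make and process ribosomal RNA, 46 fell and 0 rose, with 0 higher at an unadjusted limma p under 0.05, beside 15.4% and 19.3% of all features (median -0.47; after quantile normalization 52 fell, median -0.53). The small-subunit assembly gene tsr1 read 695, 565 and 603 in wild type and 260.4, 229 and 239 in the mutant (log2 fold change -1.30, SE 0.12, adjusted p = 3.03e-07). The nucleolin gene ncl, for an abundant nucleolar RNA-binding protein, read 4047, 3412 and 3383 in wild type and 1844, 1643 and 1955 in the mutant (log2 fold change -0.99, SE 0.11, adjusted p = 2.57e-06). Neither gene's groups overlapped. The Myc gene mycb, an activator of ribosome genes, fell from 404, 434 and 366 to 162, 186 and 135 (log2 fold change -1.24, SE 0.13, adjusted p = 1.36e-06), and the processome gene fcf1 fell by 1.39 on the log2 scale, with -0.89 as the mean of its probe sets. The bright assembly genes nop58 (log2 -0.20; -0.59 and called on a second probe set, adjusted p = 0.0104), dkc1 (log2 -0.17) and wdr43 (log2 -0.14) were not called. Omission of 1 array gave 33 to 51 falls.

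Nuclear genes of the mitochondrial respiratory chain shifted the same way, with 33 of 68 lower and 3 higher, beside 15.4% and 19.3% of all features (median -0.37; 34 lower and 3 higher after quantile normalization). The cytochrome c oxidase gene cox7c read 1229, 1289 and 1285 in wild type and 496, 540.1 and 648 in the mutant (log2 fold change -1.16, SE 0.19, adjusted p = 0.000131). The complex I gene ndufa6 read 106, 120.1 and 99.2 in wild type and 20.9, 26.2 and 42.3 in the mutant (log2 fold change -1.47, SE 0.23, adjusted p = 7.63e-05). In each gene the mutant values were below the wild-type values by a wide margin. The 2 ATP synthase subunit c genes went opposite ways, with atp5mc3b at -0.89 and atp5mc3a at 0.56 (log2 0.47 and not called without wild-type CNS array 2). Both encode copies of 1 subunit, and how far the probe sets tell them apart is not known here. The complex I gene ndufv1 rose (log2 0.57), and the complex III gene cyc1 (log2 -0.03) was not called. Omitting each array in turn gave 1 to 3 (1 without wild-type CNS array 2) for the rises and 28 to 34 for the falls.

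**Figure D4:**
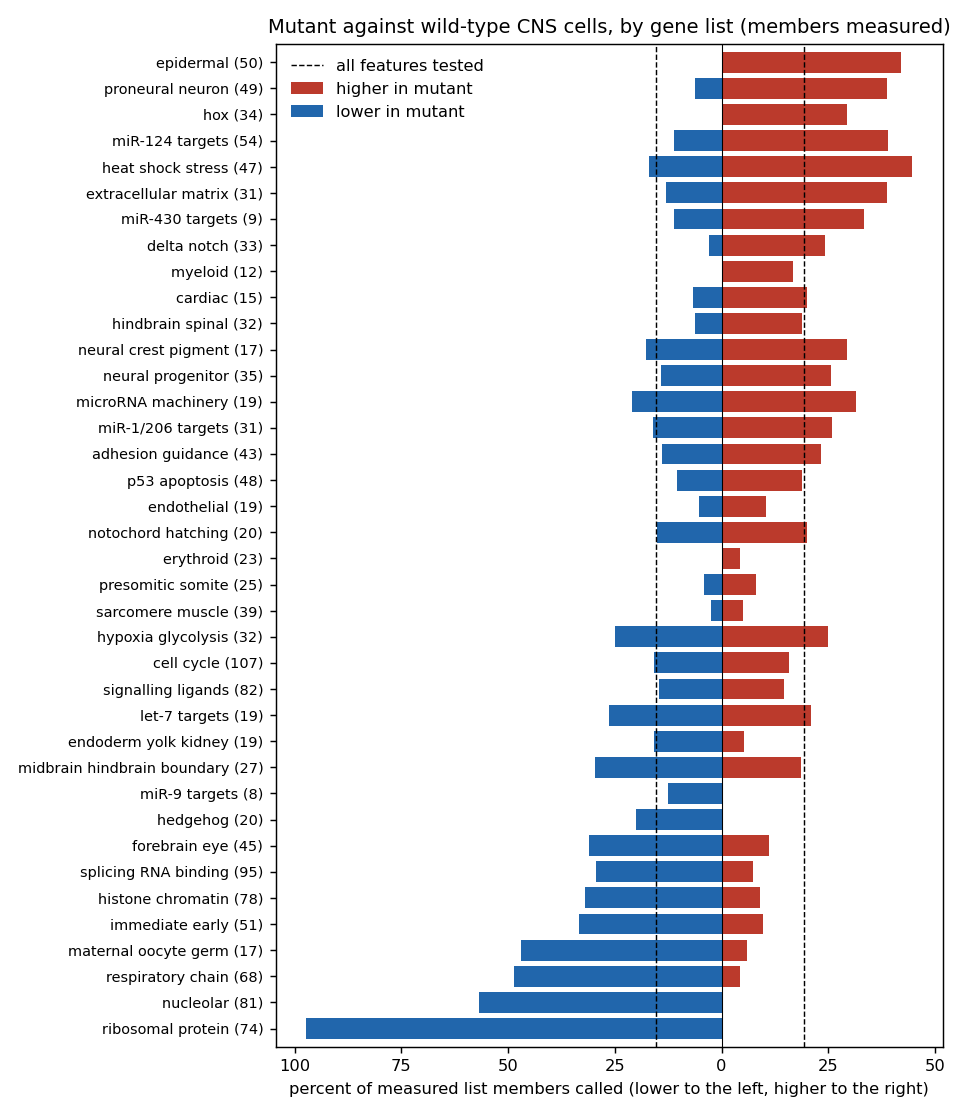
Percent of the measured members of each of 38 gene lists called higher (red, to the right) or lower (blue, to the left) in mutant against wild-type CNS cells; numbers in brackets are members measured, and dashed lines mark all features tested (19.3% higher, 15.4% lower). Ribosomal protein, nucleolar and respiratory chain genes extend furthest to the left, and heat shock, epidermal, miR-124 target, neuron and matrix genes furthest to the right.

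Of 45 measured eye field and forebrain genes, 14 fell and 5 rose, beside 15.4% and 19.3% of all features (median -0.14; 15 fell after quantile normalization). The retinal homeobox genes, which specify the eye field and retina, were all lower. The gene rx2 read 83.9, 76.1 and 132 in wild type and 8.6, 10.2 and 11.9 in the mutant (log2 fold change -2.08, SE 0.23, adjusted p = 1.81e-06), rx3 190.4, 204 and 285 in wild type and 52.2, 75.8 and 50.3 in the mutant (log2 fold change -1.68, SE 0.24, adjusted p = 3.93e-05) and rx1 51.3, 29.8 and 28.2 in wild type and 12.3, 3.6 and 5.1 in the mutant (log2 fold change -1.18, SE 0.18, adjusted p = 4.83e-05). In all 3 the groups were separate, and mutant values of rx1 and rx2 lay in the dim range. Another eye factor gene, hmx4, fell by 1.21 on the log2 scale, the Wnt receptor gene fzd5 of the eye field by 0.64, and nr2e1, the Tailless homologue of retinal and forebrain progenitors, from 321, 323 and 322 to 146, 215 and 153 (log2 -0.87). The rises included the COUP-TF genes nr2f1a (log2 1.02; 449, 471 and 575 against 918, 1051 and 1099) and nr2f1b (log2 0.88), nuclear receptors of brain patterning. Their bright relatives nr2f2 (log2 0.29) and nr2f5 (log2 0.13) were not called, but a second nr2f2 probe set was called higher (log2 0.55, adjusted p = 0.0184). When 1 array was omitted, the counts were 3 to 5 (3 without mutant CNS array 3 or wild-type CNS array 2) for the rises and 10 to 15 for the falls.

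At the midbrain-hindbrain boundary, an organizer that signals through Fgf8, 8 of 27 genes fell and 5 rose, beside 15.4% and 19.3% of all features (median -0.15). The engrailed gene en1b read 134, 126 and 127 in wild type and 45.2, 64.2 and 49.1 in the mutant (log2 fold change -1.08, SE 0.16, adjusted p = 5.05e-05). The gene her5, a repressor that keeps the boundary free of neurons, read 90.5, 49.3 and 67.1 in wild type and 25, 24.7 and 25.1 in the mutant (log2 fold change -1.02, SE 0.17, adjusted p = 0.000101). The Ets gene etv5b, a transcriptional readout of Fgf signalling, read 1329, 1311 and 1124 in wild type and 679, 660.0 and 592 in the mutant (log2 fold change -0.94, SE 0.14, adjusted p = 5.72e-05). All 3 were lower on each mutant array than on any wild-type array. The Fgf feedback inhibitor gene spry4 fell too (log2 -0.70), whereas other Fgf readouts, dusp6 (log2 0.19) and etv4 (log2 -0.02), were not called, nor was fgf8a itself (38.5, 36.7 and 26.2 against 40.8, 47.9 and 50.5; 0.33). Among the rises were the POU genes pou3f1 (log2 0.87) and pou5f3 (log2 0.80). The counts with 1 array fewer were 2 to 5 (2 without mutant CNS array 3) for the rises and 4 to 10 (4 without wild-type CNS array 3) for the falls, and 3 rose and 9 fell after quantile normalization.

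Hox genes pattern the hindbrain and spinal cord along the body axis, and those called were higher. Of 34 measured, 10 rose and 0 fell, beside 19.3% and 15.4% of all features, and at an unadjusted limma p under 0.05 14 were higher and 0 lower (median 0.33). Of the 34, 14 lay below the 40th percentile on every wild-type CNS array and 9 on every mutant CNS array. Genes that dim in wild type had little room to fall, so the absence of falls says little about them. Beside hoxc8a, the anterior gene hoxb1a, which marks a single hindbrain segment, read 19.0, 15 and 21.8 in wild type and 95.5, 80.0 and 67.9 in the mutant (log2 fold change 1.48, SE 0.17, adjusted p = 2.42e-06). The posterior gene hoxb9a read 93.6, 119 and 77.2 in wild type and 276, 242 and 258 in the mutant (log2 fold change 1.3, SE 0.19, adjusted p = 4.63e-05). Their groups did not overlap, and wild-type hoxb1a lay in or near the dim range. The genes hoxa3a (log2 1.08), hoxa9a (log2 1.1) and hoxb2a (log2 0.93) also rose. Second probe sets were not called for hoxa3a (log2 0.36), hoxa9a (log2 0.16) or hoxb9a (log2 0.30), and were for hoxb2a (log2 0.69). Fits without 1 array gave 7 to 11 rises, and in 6 of the 10 the highest array of each group was also that of the epidermal sum, beside 18.4% of all features called higher, and its part in the rises was not tested. In the GFP-negative cells 18 of the 34 rose, beside 17.5% of features higher there. Of 32 hindbrain and spinal cord genes, which include some hox genes, 6 rose and 2 fell, beside 19.3% and 15.4% of all features, and leaving out 1 array gave 5 to 6 for the rises and 1 to 3 (1 without wild-type CNS array 2) for the falls. The rises included msx3, a factor of the dorsal spinal cord (log2 1.07; 0.52 as the mean of its probe sets), while gli3, a transcriptional effector of Hedgehog signals, was at -0.92. Among retinoic acid genes besides cyp26a1, the synthesis gene aldh1a2 read 53.5, 66.7 and 56.9 in wild type and 15.4, 8.9 and 8.6 in the mutant (log2 fold change -1.48, SE 0.21, adjusted p = 2.65e-05) and the retinol transporter gene stra6 fell by 1.11.

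Among genes of neurons most of the called members were higher. Of 49 proneural and neuronal genes, 19 rose and 3 fell, beside 19.3% and 15.4% of all features (median 0.31; 18 rose and 3 fell after quantile normalization). The stathmin gene stmn1b, a microtubule regulator of early neurons, read 78.5, 108 and 124 in wild type and 344, 325 and 477 in the mutant (log2 fold change 1.74, SE 0.23, adjusted p = 1.39e-05). The motor neuron factor gene isl2a read 10.3, 21.1 and 14.0 in wild type and 87.1, 53.4 and 50.4 in the mutant (log2 fold change 1.34, SE 0.18, adjusted p = 1.84e-05). The alpha-tubulin gene tuba2 read 35.8, 49.3 and 57.8 in wild type and 122, 155 and 157 in the mutant (log2 fold change 1.34, SE 0.24, adjusted p = 0.000243), and rtn1a, a reticulon of neuronal membranes, rose by 0.78. Groups were separate in each, and wild-type isl2a lay in or near the dim range. The proneural factor gene ascl1a, which starts neuron formation, fell from 442, 510.0 and 425 to 113, 169 and 129.6 (log2 fold change -1.65, SE 0.21, adjusted p = 9.04e-06). The beta-tubulin gene tubb2b fell (log2 -0.60) but was near 0 and not called after quantile normalization. Pan-neuronal elavl3 (log2 0.04) and the factor gene myt1a (log2 0.27) were not called. Counts without 1 array were 15 to 20 for the rises and 2 to 4 for the falls. Outside the CNS cells, in the GFP-negative fraction, 5 of the list rose and 5 fell, beside 17.5% and 17.4% of all features there. The difference between the fractions was called upward for 3 of the 49 and downward for 1, beside 2.27% and 0.304% of all features.

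Progenitor genes moved both ways, with 9 of 35 higher and 5 lower, beside 19.3% and 15.4% of all features (median 0.16). The Notch receptor gene notch2, which holds cells in the progenitor state, read 80.5, 106 and 73.0 in wild type and 358, 382 and 319 in the mutant (log2 fold change 1.85, SE 0.19, adjusted p = 8.6e-07; 1.11 as the mean of its probe sets). A second notch2 probe set gave 0.37 and was not called (adjusted p = 0.101). The glial filament gene gfap (log2 0.59, quantile 0.44 and not called, as with 0.49 without wild-type CNS array 3) and sox11b, a SoxC factor of newborn neurons (log2 0.50, and 1.05 as the mean of its probe sets), rose, while the replication clamp gene pcna fell (log2 -0.71; quantile -0.17 and not called). The bright SoxB gene sox3 (3331, 3355 and 3472 against 2936, 3231 and 3179; -0.12) was not called, but another sox3 probe set was called higher (log2 0.78, adjusted p = 0.00819). The repressor gene her9 (log2 -0.03) was not called either. The epithelial cadherin gene cdh1, also on the epidermal list, rose by 1.75. In the Delta-Notch pathway, by which neighbouring cells keep each other from becoming neurons, 8 of 33 rose and 1 fell, beside 19.3% and 15.4% of all features (median 0.14). The ligand gene dlb read 326, 422 and 375 in wild type and 883, 929 and 794 in the mutant (log2 fold change 1.18, SE 0.24, adjusted p = 0.000884), and jag1a rose by 0.84. All mutant arrays exceeded the wild-type arrays in dlb. The ligand gene dld (log2 -0.08), the Notch modulator lfng (log2 0.16) and the feedback gene nrarpa (log2 -0.07; 0.45 and called on another probe set, adjusted p = 0.0265) were not called. Omitting each array in turn gave 6 to 9 for the rises and 3 to 6 (3 without mutant CNS array 1 or wild-type CNS array 2 or 3) for the falls in the progenitor list, and 4 to 8 (4 without mutant CNS array 3) for the rises and 0 to 1 (0 without mutant CNS array 1 or 3 or wild-type CNS array 2 or 3) for the falls in the Notch list.

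Of 20 Hedgehog pathway and floor plate genes, 4 fell and 0 rose, beside 15.4% and 19.3% of all features, with 3 higher and 6 lower at an unadjusted limma p under 0.05 (median -0.20; 6 fell after quantile normalization). The coreceptor gene cdon read 223, 254 and 287 in wild type and 142, 134 and 139 in the mutant (log2 fold change -0.80, SE 0.16, adjusted p = 0.000775; -0.37 as the mean of its probe sets). The gene gli3 read 253, 232 and 216 in wild type and 119.6, 139.5 and 92.8 in the mutant (log2 fold change -0.92, SE 0.25, adjusted p = 0.0082). The groups did not overlap in either. Netrin, ntn1a, an axon guidance cue of the floor plate, fell by 0.62 but was -0.30 and not called as the mean of its probe sets, and the coreceptor gene boc (log2 0.40) and the inhibitors sufu (log2 0.35) and hhip (log2 0.27) were not called. Omission of 1 array gave 3 to 6 falls. Among 43 adhesion and guidance genes, 10 rose and 6 fell, beside 19.3% and 15.4% of all features. The falls included the ephrin genes efnb2b (log2 -0.86), efnb3b (log2 -0.81) and efna5a (log2 -0.75), which set boundaries between brain cells, and the rises the Slit receptor gene robo1 (log2 0.74) and the chemokine receptor gene cxcr4a (log2 1.85). The adhesion counts were 6 to 10 (6 without mutant CNS array 1) for the rises and 5 to 7 for the falls with 1 array left out.

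Cell cycle genes moved in both directions. Of 107 measured, 17 rose and 17 fell (median -0.07, 0.02 after quantile normalization), shares near those of all features. The mitotic cyclin gene ccnb2 read 268, 238 and 219.5 in wild type and 719, 586 and 610.3 in the mutant (log2 fold change 1.34, SE 0.16, adjusted p = 4.6e-06). The gene prc1b, which bundles the microtubules of the central spindle, read 159, 125 and 119.9 in wild type and 461, 353 and 374 in the mutant (log2 fold change 1.45, SE 0.20, adjusted p = 1.76e-05). The thymidylate synthase gene tyms rose from 426, 364 and 348 to 954, 744 and 873 (log2 1.14). On all 3 the mutant arrays were higher without overlap. The replicative helicase genes mcm7 (2143, 2146 and 2074 against 1180.3, 1019 and 1418; -0.82) and mcm4 (log2 -0.73) fell, as did the spindle checkpoint gene bub3 (log2 -0.81). Among GFP-negative cells 46 of the list rose and 5 fell (median 0.37), beside 17.5% and 17.4% of all features there. Compared directly, the difference between the fractions was called for 0 of the 107. With 1 array left out the counts in CNS cells were 11 to 18 (11 without wild-type CNS array 1) for the rises and 12 to 19 for the falls.

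Of 78 histone and chromatin genes 25 fell and 7 rose (median -0.23), beside 15.4% and 19.3% of all features, and after quantile normalization 16 fell and 12 rose. The histone variant gene h2az2b read 3487, 3449.9 and 3135 in wild type and 1827, 1244 and 2006 in the mutant (log2 fold change -1.01, SE 0.18, adjusted p = 0.000238), and the linker histone gene h1-10 rose from 56.1, 74.1 and 58.2 to 267, 276 and 327 (log2 fold change 1.96, SE 0.21, adjusted p = 1.17e-06). Both were separate between groups. The demethylase gene kdm5bb fell by 1.31, and the heterochromatin protein genes cbx3b (log2 1.00) and cbx1b (log2 0.90) rose. Of 95 splicing and RNA-binding genes 28 fell and 7 rose (median -0.21; 21 and 10 after quantile normalization), beside the same shares. The splicing regulator gene celf2 changed by -1.28, the exon junction gene rbm8a by -0.83 and the spliceosome gene rbm25a by 1.21. Counts with 1 array left out were 4 to 7 (4 without mutant CNS array 1) for the rises and 14 to 26 (14 without wild-type CNS array 1) for the falls for chromatin, and 5 to 7 for the rises and 20 to 34 for the falls for splicing. Of 48 p53 and apoptosis genes 9 rose and 5 fell, beside 19.3% and 15.4% of all features (median 0.12; 6 and 8 after median centring). The translesion polymerase gene polh (log2 1.27) and sesn3 (log2 1.18), a sestrin of the stress response, rose, tp63 is on this list as a p53 relative, and gadd45ba (log2 -0.78) and the survival factor gene mcl1a (log2 -0.77) fell. The p53 readouts ccng1 (log2 0.02) and perp (log2 -0.14) were not called, and leaving out 1 array gave 5 to 12 (5 without wild-type CNS array 2) for the rises and 3 to 6 (3 without mutant CNS array 3 or wild-type CNS array 2) for the falls in the p53 list.

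Chaperone and stress genes rose in 21 of 47 cases and fell in 8 (median 0.32), the largest share of rises among the 38 lists, beside 19.3% and 15.4% of all features. Besides hspa8b, hsp90b1 and pdia3, the collagen chaperone gene serpinh1b read 1941, 1783 and 1855 in wild type and 3159.5, 3678 and 3356 in the mutant (log2 fold change 0.86, SE 0.11, adjusted p = 7.88e-06; quantile 1.37). Some genes known to be induced by acute stress fell, and the small heat shock gene hspb1 read 799, 791 and 1051 in wild type and 432, 278 and 292 in the mutant (log2 fold change -1.37, SE 0.29, adjusted p = 0.00117). The gene atf3, whose factor is switched on by stress, read 3643, 3908 and 3891 in wild type and 1889.5, 1801 and 1312 in the mutant (log2 fold change -1.20, SE 0.30, adjusted p = 0.00413). No mutant value reached the wild-type range in these 3 genes. The heat shock factor gene hsf2 fell too (log2 -1.14), and the mitochondrial chaperonin genes hspd1 (log2 0.30) and hspe1 (log2 0.26) were not called. Of 51 immediate early genes, which dissociation of tissue is known to induce, 17 fell and 5 rose (median -0.25), beside 15.4% and 19.3% of all features. Among them were junbb (2218, 1880.1 and 2204 against 1543, 1098 and 1070.1; -0.77) and the NF-kappaB inhibitor gene nfkbiab (log2 -0.96) lower and egr1 (log2 0.80) higher. In the GFP-negative cells 13 of the 51 fell and 3 rose, beside 17.4% and 17.5% of all features there. Of 32 hypoxia and glycolysis genes 8 rose and 8 fell, beside 19.3% and 15.4% of all features. The rises included the collagen prolyl hydroxylase genes p4ha2 (log2 1.49) and p4ha1b (log2 1.37) and the falls the glycolytic gene gapdh (log2 -1.16), igfbp1a (log2 -1.14), which binds insulin-like growth factors, and hexokinase hk1 (log2 -0.87). When 1 array was omitted, the counts were 17 to 23 for the rises and 3 to 8 (3 without wild-type CNS array 1) for the falls for stress genes, 3 to 6 (3 without mutant CNS array 1) for the rises and 13 to 18 for the falls for immediate early genes, and 8 for the rises and 6 to 8 for the falls for the last list.

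Reported targets of miR-124, known mostly from mammals, rose in 21 of 54 measured cases and fell in 6 (median 0.28), beside 19.3% and 15.4% of all features. Of the 54, 9 lay below the 40th percentile on every wild-type CNS array, with little room to fall, and 5 on every mutant CNS array. The scaffold gene iqgap1, which links the actin skeleton to membranes, read 21.5, 38.9 and 29.3 in wild type and 207, 147 and 146 in the mutant (log2 fold change 1.99, SE 0.20, adjusted p = 8.16e-07). The annexin gene anxa11a read 42.4, 72.9 and 51.0 in wild type and 198, 139 and 169.5 in the mutant (log2 fold change 1.38, SE 0.17, adjusted p = 5.06e-06), and its relative anxa5b 2.1, 7.2 and 3.2 in wild type and 67.5, 30.6 and 49.2 in the mutant (log2 fold change 1.66, SE 0.20, adjusted p = 5.01e-06). The groups were separate in each, and wild-type anxa5b was in the dim range on all arrays. With tagln2 these were the 4 with the smallest p, and each was highest on mutant replicate 1 and on wild-type replicate 2. Among the falls, the phosphatase gene ptpn12 read 265, 250.0 and 312 in wild type and 114, 94.2 and 128 in the mutant (log2 fold change -1.19, SE 0.17, adjusted p = 3.74e-05; -0.63 as the mean of its probe sets). The splicing repressor gene ptbp1a, a target in mammalian neurons, also fell (log2 -0.67; -0.30 and not called as the mean of its probe sets), and its paralogue ptbp1b (log2 0.08) and the lamin gene lmnb1 (log2 0.24) were not called. The architectural chromatin gene hmga1a read -0.49, with the opposite sign after quantile normalization (log2 0.13), and another of its probe sets was called higher (log2 0.85, adjusted p = 0.0114). The counts with 1 array fewer were 16 to 22 for the rises and 3 to 6 (3 without mutant CNS array 3 or wild-type CNS array 1 or 2) for the falls. Outside the CNS cells, in the GFP-negative fraction, 9 rose and 10 fell (median 0.02), beside 17.5% and 17.4% of all features there. Compared directly, the difference between the fractions was called upward for 9 of the 54, beside 2.27% of all features. Upward differences were not particular to the list, with 7 of 12 myeloid, 7 of 15 cardiac and 17 of 50 epidermal genes called upward. They were also called for 3 of 17 neural crest, 4 of 31 matrix and 4 of 31 miR-1 and miR-206 target genes. Of the 12 myeloid and 15 cardiac genes, 7 and 9 lay below the 40th percentile on every mutant CNS array. In GFP-negative cells 9 of the 12 and 8 of the 15 fell, beside 17.4% of all features there. In CNS cells 2 and 3 rose, beside 19.3%. An upward difference can thus stand for a fall outside the CNS cells. For the rises of miR-124 targets in CNS cells, the highest arrays were set beside those of the epidermal sum. In 10 of the 21, mutant replicate 1 and wild-type replicate 2 were the highest of their groups, beside 18.4% of all 1838 features called higher. These arrays had the highest epidermal sums of their groups, and 2 of the 54 genes are on the epidermal list too. The part of the epidermal sum in the result was not tested.

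Of 9 measured genes listed as miR-430 targets, 3 rose and 1 fell, beside 19.3% and 15.4% of all features (median 0.05). The tetraspanin gene cd82b read 63.1, 70.5 and 61.0 in wild type and 234, 220.3 and 233 in the mutant (log2 fold change 1.60, SE 0.16, adjusted p = 8.3e-07). The gene lft1, a Lefty inhibitor of Nodal signals, read 6.9, 3.2 and 10.1 in wild type and 78.6, 66.1 and 29.5 in the mutant (log2 fold change 1.65, SE 0.21, adjusted p = 1.04e-05). Mutant values were above all wild-type values in both, and wild-type lft1 was in the dim range. The chemokine gene cxcl12a, which guides germ cells, rose by 0.72, but a second probe set gave -0.05 and the mean of the 2 was 0.33 and not called; with 1 array left out it was 0.56 without mutant CNS array 1 and 0.59 without wild-type CNS array 3, again not called. The germ cell genes nanos3 (log2 -0.45), tdrd7a (log2 -0.21) and dazl (log2 0.05) were dim and not called, nor were the chemokine receptor gene ackr3b (log2 -0.12) and fstl1b (log2 0.22). The RNA-binding gene hnrnpaba fell (log2 -0.34) but was 0.14 after quantile normalization, and its call was lost with 1 array left out (log2 -0.30 without mutant CNS array 1, -0.34 without mutant CNS array 2, -0.31 without wild-type CNS array 1 and -0.33 without wild-type CNS array 3).

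Of 8 measured genes reported as miR-9 targets in zebrafish, 0 rose and 1 fell (0 and 2 at an unadjusted limma p under 0.05), beside 19.3% and 15.4% of all features, the faller being her5 of the boundary genes. The Hairy-related gene her6 (397, 419.9 and 348 against 543, 329.8 and 455; 0.16), zic5 (log2 0.25) and cnpy1 (log2 -0.58), a regulator of Fgf signalling at the boundary, were not called, as with fgf8a, her9 and elavl3 above and the Fgf receptor gene fgfr1a (log2 -0.15). Reported let-7 targets moved both ways, with 4 of 19 higher and 5 lower, beside 19.3% and 15.4% of all features (median -0.13). The Myc family gene myclb read 188, 243 and 192 in wild type and 409, 406 and 399.9 in the mutant (log2 fold change 0.92, SE 0.15, adjusted p = 8.57e-05), while mycb and myca (log2 -0.79) fell. The mutant arrays of myclb were all above the wild-type arrays. Reported targets of miR-1 and miR-206, the microRNAs of muscle, rose in 8 of 31 cases and fell in 5 (median 0.16), beside 19.3% and 15.4% of all features. Among the rises were tagln2 and the transcription factor gene snai2 (log2 1.04) shared with the miR-124 list. Besides gja1b, the falls held met, a receptor tyrosine kinase (152, 161 and 183 against 62.9, 66.9 and 49.0; -1.26). Counts without 1 array were 2 to 4 (2 without mutant CNS array 1) for the rises and 4 to 5 for the falls for let-7, and 6 to 9 for the rises and 4 to 5 for the falls for miR-1 and miR-206 targets. Of 45 genes on the array listed for the oocyte, germ line and maternal supply, only 17 passed the filter. Of these 17, 7 lay below the 40th percentile on every mutant CNS array and 1 on every wild-type CNS array. The filter can keep a gene through wild-type arrays alone, which favours falls. Of the 17, 8 fell and 1 rose (median -0.45), beside 15.4% and 19.3% of all features. The falls included zp3a.2 of the egg coat (53.6, 67.1 and 86.4 against 15.9, 25.4 and 17.6; -1.25) and npm2b, a maternal histone chaperone (log2 -1.14), but also ybx1 (log2 -1.04) and pabpc1a (log2 -0.85; quantile -0.26), which many cell types express. The falls numbered 5 to 8 (5 without mutant CNS array 2 or wild-type CNS array 1 or 2) with 1 array left out. Among GFP-negative cells 10 of the 17 fell and 1 rose (median -0.69), beside 17.4% and 17.5% of all features there.

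Of 50 epidermal genes 21 rose and 0 fell, beside 19.3% and 15.4% of all features, with 23 higher and 1 lower at an unadjusted limma p under 0.05 (median 0.33; 20 rose and 1 fell after quantile normalization). Besides cldni, cfl1l and tp63, cdh1 read 50.2, 119.6 and 109 in wild type and 381, 335 and 291 in the mutant (log2 fold change 1.75, SE 0.23, adjusted p = 1.11e-05), with the lowest wild-type value on replicate 1. The ectodermal factor genes tfap2a (785, 1052 and 951 against 1280.3, 1237 and 1045; 0.35) and gata2a (log2 0.54) and the keratin gene krt97 (log2 0.25) were not called. Rises numbered 17 to 23 with 1 array left out. Among GFP-negative cells 25 of the 50 fell and 1 rose (median -0.58), beside 17.4% and 17.5% of features there, and the difference between the fractions was called upward for 17, beside 2.27% of all features. Extracellular matrix genes rose in 12 of 31 cases and fell in 4 (median 0.28), beside 19.3% and 15.4% of all features. Of the 31, 9 lay below the 40th percentile on every wild-type CNS array and 7 on every mutant CNS array. Genes that dim in wild type had little room to fall. The thrombospondin gene thbs1b read 19.3, 19.2 and 22.0 in wild type and 139, 107 and 117 in the mutant (log2 fold change 1.92, SE 0.20, adjusted p = 8.23e-07), the collagen gene col1a1a 35.4, 51.8 and 36.0 in wild type and 259, 158 and 186 in the mutant (log2 fold change 1.91, SE 0.26, adjusted p = 1.85e-05) and the proteoglycan gene dcn 14.9, 24.9 and 11.8 in wild type and 112, 79.2 and 90 in the mutant (log2 fold change 1.73, SE 0.20, adjusted p = 2.7e-06). All were dim or moderate in wild type and without overlap. In 10 of the 12 rises the highest arrays of both groups were those of the epidermal sum, beside 18.4% of all features called higher. The part of that sum in the rises was not tested, and only 6 rose without mutant CNS array 1. Fits without 1 array gave 1 to 5 (1 without mutant CNS array 1 or wild-type CNS array 2 or 3) falls.

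Among lists of other cell types, rises and falls numbered 2 and 1 of 39 for the sarcomere, 2 and 1 of 25 for presomitic mesoderm and somites, 1 and 0 of 23 for erythroid, 2 and 0 of 12 for myeloid, 2 and 1 of 19 for endothelial, 3 and 1 of 15 for cardiac, 4 and 3 of 20 for notochord and hatching gland, and 1 and 3 of 19 for endoderm, yolk and kidney genes. These stand beside 19.3% and 15.4% of all features, and the shares of rises in the cardiac (20%) and notochord lists (20%) were near the former. Of the 39 sarcomere genes, 28 lay below the 40th percentile on every mutant CNS array. With 1 array left out, no rise count of these lists exceeded 4 and no fall count exceeded 4, and sarcomere and endothelial falls and sarcomere and endoderm rises reached 0. Several of those called were dim in wild type, such as the cardiac factor gene nkx2.7 (17.0, 16.6 and 15 against 67.5, 38.5 and 41.7; 0.99), and isl1a, on the cardiac list and also a neuronal factor, rose by 1.35. Of 17 neural crest and pigment genes 5 rose and 3 fell (no falls without wild-type CNS array 2), beside 19.3% and 15.4% of all features, with the crest specifier genes foxd3 (28.9, 48.7 and 45.4 against 157, 99.0 and 111; 1.27) and tfap2c (log2 1.49) higher. Their arrays did not overlap. Of 82 signalling genes 12 rose and 12 fell, beside 19.3% and 15.4% of all features. The Smad genes smad2 (97.4, 84.0 and 84.6 against 196, 219 and 219; 1.12), a mediator of Nodal signals, and smad6a (log2 0.91, an inhibitor of Bmp signals) and the Bmp modulator bmper (log2 1.08) rose. The tail factor gene cdx4 read 482, 691 and 625 in wild type and 1445, 1127 and 1127 in the mutant (log2 fold change 1.03, SE 0.22, adjusted p = 0.00133), with every mutant array above every wild-type array. The signalling counts were 7 to 11 (7 without mutant CNS array 1 or wild-type CNS array 1) for the rises and 7 to 13 (7 without mutant CNS array 3) for the falls with 1 array left out.

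The same genotypes were compared in the GFP-negative cells, which share no arrays with the CNS groups. There 3334 features were called (34.9%), 1673 higher (17.5%) and 1661 lower (17.4%). Both fractions called 2030 features, 1989 in the same direction and 41 in opposite directions; the shared calls of 1 direction were 60.04% of the CNS calls and 59.7% of the GFP-negative calls. Across the 9548 features, which are not independent replicates and whose fractions come from the same lines, the changes of the fractions correlated at r = 0.706 (Spearman's rho 0.704). Ribosomal, nucleolar and respiratory chain genes, and the chaperone and hox lists, had medians of the same sign in both fractions, while the epidermal, matrix and endothelial medians were above 0 in CNS cells and below 0 in the rest. Medians of the whole feature set were 0.02 and -0.00.

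**Figure D5:**
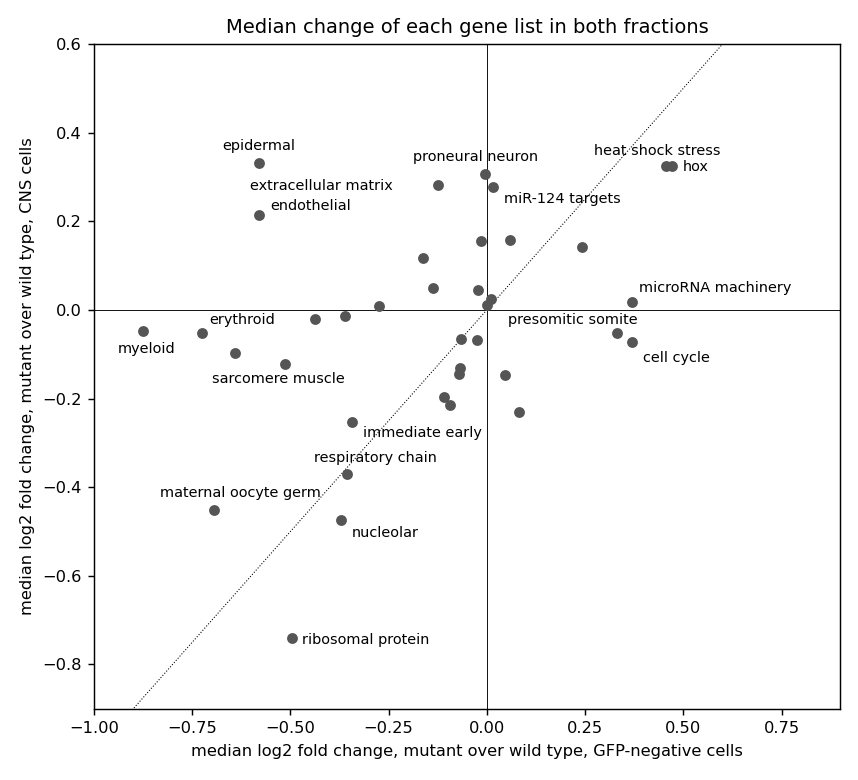
Median log2 fold change (mutant over wild type) of each of 38 gene lists in GFP-negative cells (x) and in CNS cells (y); points are lists, the dotted line marks equal medians, and selected lists are labelled. Ribosomal protein genes are lowest in CNS cells (log2 -0.74, against -0.50 in the rest), and epidermal genes stand at 0.33 against -0.58.

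The difference of the mutant change between the fractions was called for 246 features (2.58%), 217 higher in CNS cells (2.27%) and 29 lower (0.304%). The retinoic acid synthesis gene aldh1a2 fell in CNS cells and rose from 494, 281 and 243 to 821, 586 and 752 in the GFP-negative cells (difference -2.58, adjusted p = 9.53e-05). The collagenase gene mmp13a, dim in CNS cells, dropped in the rest from 431, 771 and 1119 to 24.6, 23.4 and 15.2 (difference 3.77, adjusted p = 8.7e-05). For gja1b the GFP-negative values were 234, 219.9 and 274 in wild type and 78.9, 35.8 and 82.9 in the mutant (difference -2.27, adjusted p = 0.00178). Each of these differences exceeded the spread between arrays. Other upward differences were those of pfn1 (log2 2.93, adjusted p = 0.00083), cldni (log2 2.73, adjusted p = 0.00375) and gpa33a, a surface antigen of epithelia (log2 2.56, adjusted p = 0.00211). The ventral factor gene vox (log2 -1.90, adjusted p = 0.0207) and gulp1a (log2 -1.75, adjusted p = 0.0016) were lower. Omission of 1 array gave 141 to 317 called differences, with 152 without mutant CNS array 1, 141 without wild-type CNS array 1, 159 without mutant GFP-negative array 1 and 158 without mutant GFP-negative array 3.

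Genes near dicer1 on its chromosome were listed, since alleles linked to a mutation can differ between lines. Of 55 measured genes among the 100 on either side, 22 were called (40%), 4 of them with at least a 2-fold change. Of 26 among the 50 on either side, 10 were called (38.5%). These shares stand beside 34.7% of all features, and 638 of all 9548 features were called with at least a 2-fold change. Gene order was taken from RefSeq. Where a called gene had further probe sets, 341 of 434 such probe sets had the same sign, 150 of them called, and 18 were called in the opposite direction.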

How the data were processed

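Total RNA of sorted zebrafish cells was hybridised to 18 Affymetrix arrays after biotin labelling of cRNA made from 100 ng, per the labels' protocols. The deposited values are linear intensities computed by the authors with MAS5, per the submitters' processing notes, which give no version. Their 2% trimmed mean was 150.029 to 150.041 on every array, as after scaling to a common level. Signals from MAS5 keep differences in the shape of the distribution between arrays, which bear on very bright genes. Of 15617 probe sets, 115 controls were left out. Of the other 15502, 10795 had 1 gene symbol in the platform annotation (8793 symbols), 135 several and 4572 none; 10711 gene IDs were found in RefSeq, and 1 symbol was updated.

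Probe sets had to exceed the 40th percentile of the array in 3 or more of the 18 arrays, which left 10704. For a gene with several, the 1 with the highest mean over all arrays was used and 1156 were set aside, leaving 9548 features, 2717 of them without a symbol. Values were tested as log2(intensity + 16) with limma 3.58.1 in R 4.3.3 (lmFit and eBayes with an intensity trend, two-sided), with 1 mean for each of 6 groups over all 18 arrays and no replicate block, so that all groups share 1 estimate of the spread. Contrasts were mutant minus wild type in CNS cells, the same in GFP-negative cells, and the difference of both. The median standard error was 0.17 in CNS cells and 0.24 for the difference; 3 arrays a group limit the precision. The labels call the arrays biological replicates but do not say that they came from separate clutches, so p-values measure the spread between these arrays. On simulated data with 200 of 9548 features changed, 89% were recovered at 2-fold and 100% at 4-fold, with 11 false calls. The simulated noise was independent between features, and far fewer features changed than the 34.7% called in CNS cells. These rates therefore need not hold for the real arrays. Tables and plots were made with Python 3.11.15, numpy 2.4.6, pandas 2.3.3 and matplotlib 3.10.9.

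Members and gene lists were chosen with earlier results of these data known, and the 38 lists, microRNA targets included, were drawn up by hand from general knowledge, not taken from a table of predicted or measured targets. The rule for named genes took the 15 largest rises and falls with separate groups, up to 4 rising and 4 falling members of each list with the smallest adjusted p, all members of the microRNA machinery, miR-430 and miR-9 lists, and the 4 largest differences between fractions each way; of members not called, those with the highest mean were preferred. Clone and locus names and features without a symbol were left out of the largest rises, falls and differences. The text describes some of the genes the rule took and counts the others. The alternatives tried were other pseudocounts, filters, scalings, sets of arrays, array weights, rules for probe sets, a replicate block and leaving out each array. Replicate numbers did not pair the mutant with the wild-type CNS arrays, as residuals of same-numbered CNS arrays correlated at 0.04, -0.04 and 0.07. Whether the numbers pair the GFP-positive with the GFP-negative cells of a line was not tested. The fit treated these fractions as unpaired. No sequences were used here, and the miR-206 arrays entered only the filter, the choice of probe set and the estimate of spread.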

Additional observations from a re-analysis of the deposited data

Results flagged for a closer look

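Of the genes named here, 38 were singled out because the mutant change differed between CNS and GFP-negative cells by the limma test of that difference (adjusted p = 8.7e-05 to 0.0394, 3 arrays a group). Each value is the log2 change in CNS cells minus that in GFP-negative cells. Epithelial and epidermal genes were tp63 (2.56), cldni (2.73), cfl1l (2.1), cdh1 (2.06), gata3 (1.23), gpa33a (2.56) and padi2 (2.02). The actin genes were pfn1 (2.93), tagln2 (2.42), coro1a (1.32) and iqgap1 (1.62). For coro1a this rests on 1 probe set, with a CNS change of 1.53, since another gave -0.07 there (adjusted p = 0.816). Genes of the matrix and its receptors were col1a1a (1.93), dcn (1.86), thbs1b (1.54), itga5 (0.97), ccn2a (2.1) and mmp13a (3.77). Genes of heart, muscle and blood were nkx2.7 (2.19), hand2 (1.42), isl1a (1.98), myh7 (2.3), acta1a (1.52), cebpa (1.51) and cyba (0.95). Neuronal, crest and patterning factor genes above 0 were isl2a (1.34), foxd3 (1.44), snai2 (1.44), hoxc8a (1.3) and lft1 (1.76), with the chemokine receptor gene cxcr4a (1.86). For myh7, nkx2.7, mmp13a and cebpa the GFP-negative cells had the larger change, a fall of 2.54, 1.2, 4.32 and 1.66 there. For vox and cdh2 the called changes were in GFP-negative cells, rises of 1.46 (adjusted p = 0.00151) and 0.42 (adjusted p = 0.0224), while the CNS changes of -0.44 and -0.33 were not called. Below 0 were the eye and forebrain genes rx2 (-1.73) and nr2e1 (-0.99), the retinoic acid gene aldh1a2 (-2.58), the ventral factor gene vox (-1.90), the neural cadherin gene cdh2 (-0.75), the lipid elongase gene elovl4b (-1.29), the adaptor gene gulp1a (-1.75) and the connexin gene gja1b (-2.27). The epidermal sum was 7634 to 11198 in mutant and 2896 to 4477 in wild-type CNS cells, and 10519.6 to 14329 and 13472 to 17895 in the GFP-negative cells; its part in the differences was not tested.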

How the results depend on the processing

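Over the settings that keep all arrays of the miR-124 CNS groups, between 2777 (stricter filter) and 4714 (array weights) features were called in CNS cells, against 3313. With a pseudocount of 1 there were 3248 and with 64 there were 3303, with every probe set kept 3241, with median-centred arrays 3356, after quantile normalization 3130, and with the mean of a gene's probe sets 3266; leaving out 1 array gave 2529 to 3569. Called differences between fractions numbered 141 to 317 when 1 array was left out, against 246, and 353 with array weights. The dicer1 change was -0.63 to -1.10 when 1 CNS array was left out. After quantile normalization 42 ribosomal protein genes were called lower, against 72. Quantile normalization also turned the sign of 4 very bright genes called lower, hmga1a (0.13), hmgb1b (0.080), hnrnpaba (0.14) and hsp90ab1 (0.29). It did the same for anp32a (0.31) and tmsb4x (0.48), which were not called before. With it, limma called hsp90ab1 (adjusted p = 0.0123), anp32a (adjusted p = 0.016) and tmsb4x (adjusted p = 0.0051) higher. The genes hmga1a, hmgb1b and hnrnpaba were then not called. The mean of its probe sets also turned hmga1a (0.10). The brightest features have lower maxima on the mutant arrays, and the cause was not tested. Of 218 called genes that the naming rule takes, described in the text or not, 201 kept their call under quantile normalization, 213 under median centring, 207 with the mean of probe sets and 194 to 202 without 1 CNS array, while a pseudocount of 64 shrank 67 changes by over 1.5 times. Genes with signals near the 40th percentile (20.4 to 22.7) are limited by background, and the pseudocount shrinks their changes.

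Replicate numbers are shared between groups but did not pair the mutant with the wild-type CNS arrays. Whether they pair the GFP-positive with the GFP-negative cells of a line was not tested. The block tried joined same-numbered arrays across lines and fractions. With a replicate block over the arrays of the miR-124 lines, 3820 features were called in CNS cells and 377 differed between fractions, against 3695 and 347 on those arrays without it.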
